A study of Mus musculus with 15 samples.

Results

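The genes followed here encode proteins of pre-mRNA splicing, chosen by their symbols: the Srsf genes with a number, the genes whose symbols begin with Hnrnp, the Sf3a and Sf3b genes, and the Snrp genes with a letter from a to g. Of 51 symbols of this form, 50 reached an FPKM (sequenced fragments scaled to transcript length and library size) of at least 1 in at least 1 library, of 16902 symbols that did so and 44788 symbols in all. They comprise 11 Srsf, 20 Hnrnp, 8 Sf3 and 11 Snrp genes, with the Srsf and Hnrnp genes called regulatory (31 genes) and the Sf3 and Snrp genes core (19 genes). The symbol left out, Hnrnpa1l2-ps, reached at most 0.0922 FPKM. The SF3b subunit gene Sf3b6 is listed under its older symbol 0610009D07Rik and so lies outside the rule, as do Snrpn and Snrnp70.

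RNA of whole stomachs of C57BL/6 mice was sequenced at 15 timepoints, with 1 library each: daily over embryonic days E12.5 to E18.5, on days 1, 3 and 5 after birth (D1, D3, D5), and in weeks 1, 2, 3, 6 and 8 after it (W1, W2, W3, W6, W8). No genetic change or treatment is labelled for any of the animals. Per the study's reporting notes, a replicate pooled 3 stomachs at E12.5 to E14.5 and 2 at E15.5 to E17.5 and held 1 stomach at later ages, which the notes do not tie to the RNA libraries by name. The notes also state that sex was not distinguished in offspring of up to 2 weeks and that older ones were male, so pooling and sex cannot be told apart from age across the phases. Following the study, timepoints were placed in 3 phases, Ph1 (E12.5 to E17.5, n = 6), Ph2 (E18.5 to W2, n = 6) and Ph3 (W3 to W8, n = 3). Timepoints stand in for replicates of a phase, so each error below holds change with age as well as noise, and the phases were drawn by the study from these same transcriptomes, so that adjusted p-values describe how far the phases lay apart. In bulk RNA of a whole organ, fewer cells of a type and less RNA per cell cannot be told apart.

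Splicing removes introns in 2 steps on the spliceosome, which is built from small nuclear ribonucleoproteins (snRNPs). In each of the U1, U2, U4 and U5 snRNPs a ring of 7 Sm proteins, made by Snrpb, Snrpd1, Snrpd2, Snrpd3, Snrpe, Snrpf and Snrpg, encircles the RNA. Snrpa and Snrpc encode proteins particular to U1, which reads the 5′ splice site, and Snrpa1 and Snrpb2 proteins particular to U2, which pairs with the branch point. SF3a and SF3b are the protein complexes that let U2 grip the branch point. SR proteins (Srsf) bind exons through RNA recognition motifs and recruit the spliceosome through domains rich in arginine and serine, whereas hnRNP proteins coat nascent transcripts and often block splice sites, so the balance of both families sets which exons are kept. Dividing cells with high RNA synthesis are known to be rich in all of them.

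The promoters of 5 genes on which the results below turn are shown first: Hnrnpa1 and Hnrnpa2b1, close relatives whose mRNAs diverged with age, Snrpg, the core gene with the highest mean FPKM over the 15 libraries, and Srsf7 and Srsf5, which began to fall early and late. Each run holds the 250 bases before 1 RefSeq transcription start of the gene, on its own strand, 5′ to 3′, in GRCm38.p6. That of Hnrnpa2b1 lies inside the span of the gene's entry (51460434 to 51470315), so it is not the sequence before the outermost start. Capitals mark CCAAT (or ATTGG on the other strand), the core of the CCAAT box, and CCGGAAG (or CTTCCGG), a core that ETS-family factors are known to bind.
Hnrnpa1, chr15:103240147-103240396, plus strand: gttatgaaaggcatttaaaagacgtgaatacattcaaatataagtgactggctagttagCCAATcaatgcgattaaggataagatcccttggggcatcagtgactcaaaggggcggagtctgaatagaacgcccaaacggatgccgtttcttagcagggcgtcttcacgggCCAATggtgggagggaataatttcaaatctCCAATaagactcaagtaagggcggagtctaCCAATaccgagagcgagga
Hnrnpa2b1, chr6:51469895-51470144, minus strand: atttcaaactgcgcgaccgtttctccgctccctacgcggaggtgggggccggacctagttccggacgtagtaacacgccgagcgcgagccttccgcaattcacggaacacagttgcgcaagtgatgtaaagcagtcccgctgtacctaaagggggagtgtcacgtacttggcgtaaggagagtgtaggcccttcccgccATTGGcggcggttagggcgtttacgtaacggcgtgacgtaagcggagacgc
Snrpg, chr6:86371290-86371539, plus strand: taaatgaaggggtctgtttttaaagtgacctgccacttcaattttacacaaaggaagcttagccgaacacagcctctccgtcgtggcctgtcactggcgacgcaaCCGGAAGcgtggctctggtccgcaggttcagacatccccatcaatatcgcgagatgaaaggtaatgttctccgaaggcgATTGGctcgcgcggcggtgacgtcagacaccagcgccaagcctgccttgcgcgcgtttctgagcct
Srsf7, chr17:80207306-80207555, minus strand: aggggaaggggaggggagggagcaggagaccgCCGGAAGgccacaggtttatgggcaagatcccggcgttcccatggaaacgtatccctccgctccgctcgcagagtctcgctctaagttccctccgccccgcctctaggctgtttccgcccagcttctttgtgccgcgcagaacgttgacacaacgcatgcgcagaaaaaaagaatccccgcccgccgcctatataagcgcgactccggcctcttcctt
Srsf5, chr12:80945249-80945498, plus strand: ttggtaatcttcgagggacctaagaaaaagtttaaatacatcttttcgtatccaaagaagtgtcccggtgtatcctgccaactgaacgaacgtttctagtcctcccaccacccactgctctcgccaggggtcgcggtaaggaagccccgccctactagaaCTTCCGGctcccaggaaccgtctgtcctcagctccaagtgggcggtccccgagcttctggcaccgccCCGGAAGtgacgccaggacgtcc
Hnrnpa1 held 4 CCAAT cores and Hnrnpa2b1 held 1, and Srsf5 held 2 CCGGAAG cores and no CCAAT. RefSeq promoter windows were matched for 44 of the 50 genes (15 core, 29 regulatory) and for 11398 of all symbols tested, and 4 motifs were searched on both strands. Some windows, among them those of Hnrnpl and Srsf1, also lie inside the span of the gene's entry. The motif counts thus include sequence downstream of an outer start. CCAAT lay in 15 of 29 regulatory and 5 of 15 core windows, beside 35.8% of all windows. CCGGAAG lay in 8 of 15 core and 6 of 29 regulatory windows, beside 12.3% of all windows. The GC-box core GGGCGG lay in 31 of 44 windows (56.6% of all) and the TATA-box core TATAAA in 5 (7.25% of all). The median GC content was 60.6% in the 44 windows and 59.6% in all windows. These matches are a description of letters and were not tied to binding.

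At every timepoint the 50 genes made up a measurable part of the stomach transcriptome, and that part shrank with age. Their summed FPKM was 1.68% of the library's sum at E12.5, 0.976% at E17.5, 0.785% at E18.5, 0.475% at W2, 0.377% at W3, 0.223% at W6 and 0.276% at W8. The values were highest at E12.5 for 45 of the 50 genes and lowest at W6 for 34 and at W8 for 16. The mean over Ph1 was 1.76-fold (Hnrnpul2) to 16.0-fold (Srsf12) that over Ph3, with a median of 3.24-fold. For 20 genes the first timepoint at or under 50% of the gene's own maximum was E18.5, and for 14 it was D1. The plot of each gene by timepoint shows this fall as a gradual darkening from left to right in all 4 families.

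**Figure D1:**
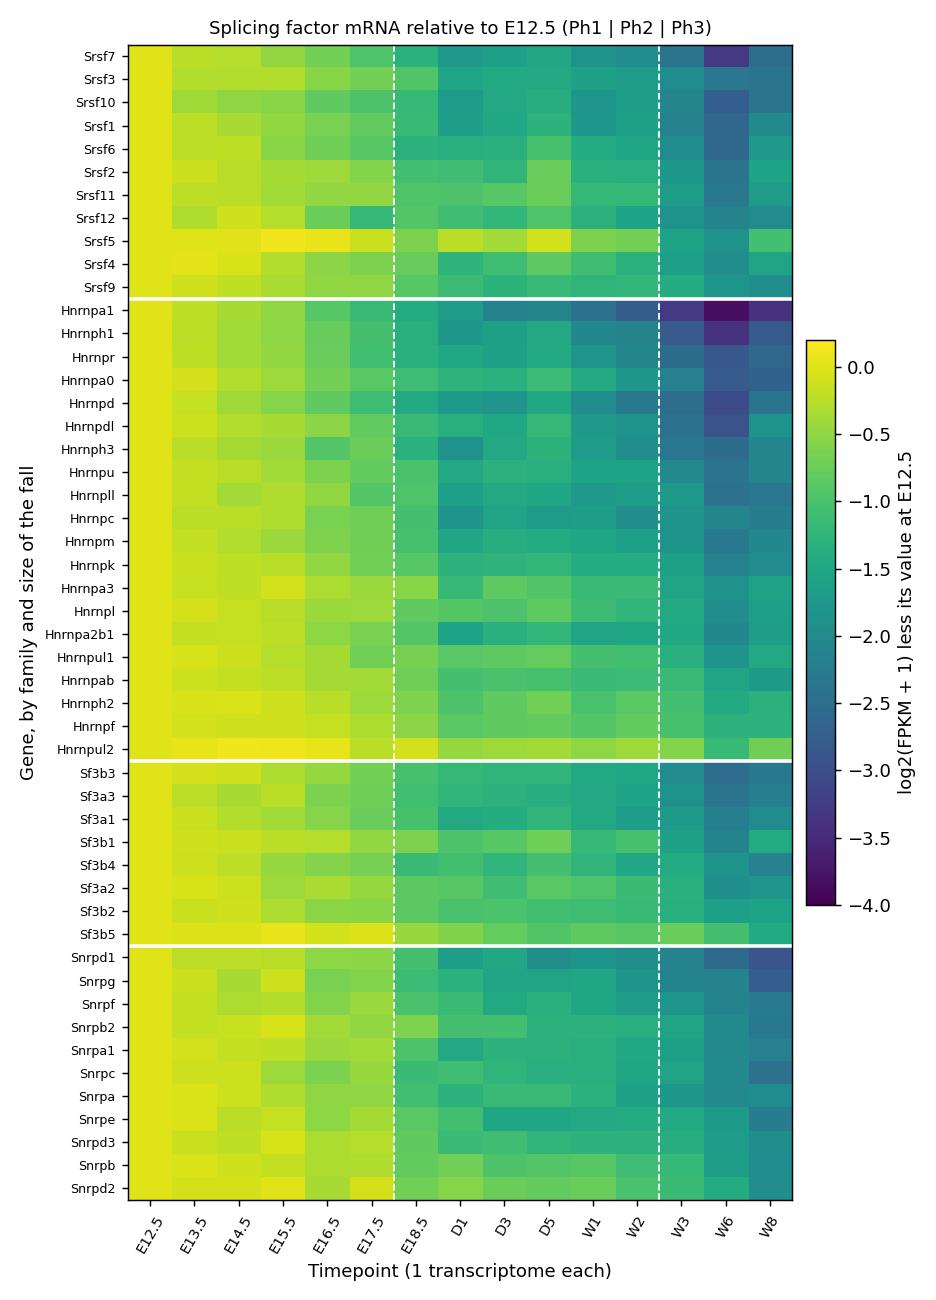
Each row is 1 of the 50 genes, grouped by family (Srsf, Hnrnp, Sf3, Snrp from top to bottom, white lines between them), each column is 1 library, and colour gives log2(FPKM + 1) less its value at E12.5. Dashed lines part Ph1, Ph2 and Ph3; Hnrnpa1 is darkest, while Srsf5, Hnrnpul2 and Sf3b5 stay light until after Ph1.

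On log2(FPKM + 1), all 50 genes differed across the phases by limma's F test at an adjusted p under 0.01, as did 70.8% of all symbols tested. All 50 were lower in Ph2 than in Ph1 (35.1% of all symbols), 43 were lower in Ph3 than in Ph2 (37.4% of all symbols), and all 50 were lower in Ph3 than in Ph1 (55.2% of all symbols). In 46 genes the lowest of the Ph1 values exceeded all later ones, against 21.5% of all symbols, and in 44 the highest Ph3 value was under the lowest of Ph2, against 44.7% of all symbols. The median change of the 50 genes was -0.98 from Ph1 to Ph2 and -0.72 from Ph2 to Ph3, and that of all symbols was -0.22 and -0.43. From Ph1 to Ph3 the median was -1.64 for the 50 genes and -0.64 for all symbols, and 12.6% of all symbols lay below -1.64.

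FPKM values are shares of a library, and a few symbols took up much of the later libraries: the 10 highest symbols held 11.2% of all FPKM at E14.5 and 53.2% at W6. Each comparison was therefore repeated after median-ratio scaling, which sets the typical gene to the same level in every library and moved the median of all symbols from Ph1 to Ph3 from -0.64 to -0.00. On this scale 49 of the 50 genes differed across the phases (60.7% of all symbols), 46 were lower in Ph2 than in Ph1 (18.7% of all symbols) and 46 were lower in Ph3 than in Ph1 (27.3% of all symbols). Only 2 genes, Hnrnpa0 and Hnrnph1, were lower in Ph3 than in Ph2, a share under that of all symbols (10.2%), and this count was 0 to 4 with single libraries left out. The count of 43 on FPKM values was 10 without W6 and 25 without W8, so the later step rested on the scale and on these libraries, whereas the step from Ph1 to Ph2 was called for 48 to 50 genes whichever library was left out. Scaled values of Ph1 lay above every later value in 42 genes (9.92% of all symbols) and those of Ph3 below all of Ph2 in 9 (16.0% of all symbols). The scaled medians were -0.70 from Ph1 to Ph2, -0.12 from Ph2 to Ph3 and -0.78 from Ph1 to Ph3. Relative to E12.5, the scaled median over the 50 genes was -0.76 at E18.5, -0.91 at D1, -0.99 at D3, -1.12 at W2 and -1.11 at W8, so most of the fall relative to the typical gene lay before D3, as the plot of family medians shows.

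**Figure D2:**
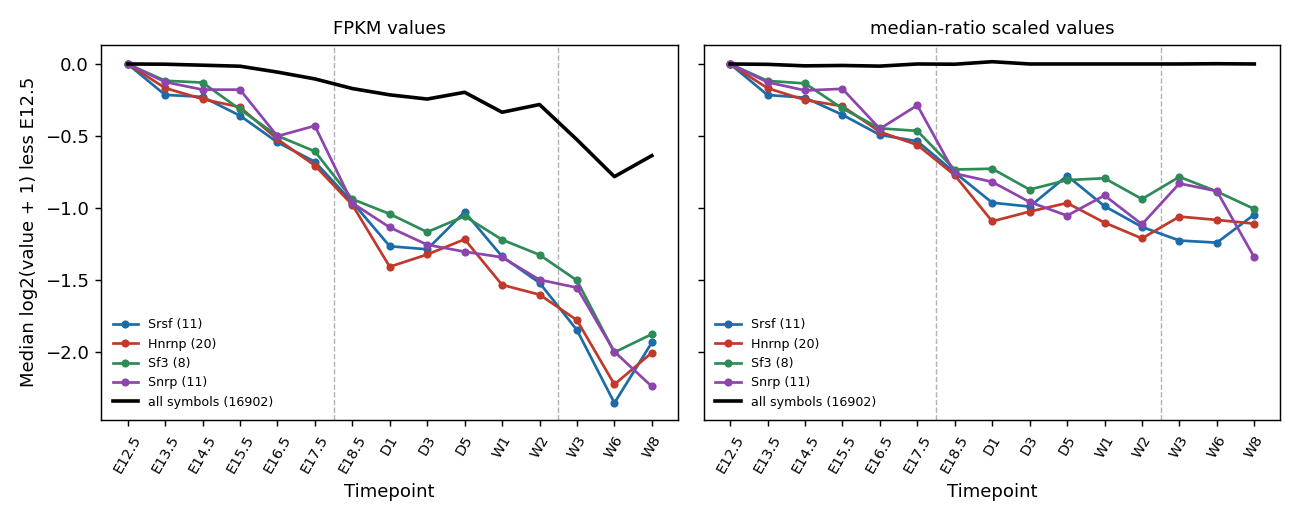
Lines give the median over each family (number of genes in the legend) and over all 16902 symbols of log2(value + 1) less its value at E12.5, for FPKM (left) and median-ratio scaled values (right), by timepoint with 1 library each. On FPKM values families and all symbols fall into Ph3; on scaled values all symbols stay near 0 and the families lie between -0.73 and -1.34 from E18.5 on.

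Among SR proteins, the Srsf genes, all 11 were called lower in Ph3 than in Ph1 on both scales. Of all symbols, 55.2% were so called on FPKM values and 27.3% after scaling. The median change of the 11 was -1.61 on FPKM values and -0.78 scaled. From Ph1 to Ph2 all 11 fell after scaling, and 9 were called lower (18.7% of all symbols). Srsf7, whose product takes part in mRNA export and 3′ end formation, fell most on log2(FPKM + 1). It was 251.5 FPKM at E12.5, 129.7 at E17.5, 100.2 at E18.5, 63.7 at W2, and 47.5, 24.7 and 44.4 at W3, W6 and W8. Its Ph1, Ph2 and Ph3 values did not overlap, and the change from Ph1 to Ph3 was -2.28 ± 0.23 (SE, adjusted p 8.2e-07) and -1.40 ± 0.17 after scaling (adjusted p 8.5e-06). Srsf3, the smallest SR protein and a partner of mRNA export, fell by 1.88 on the log2 scale (SE 0.17, adjusted p 5.7e-07), from 235 ± 39 FPKM in Ph1 (SD, n = 6) to 110 ± 22 in Ph2 and 62.9 ± 11 in Ph3 (n = 3).

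Srsf5, an SR protein known to be induced by growth signals, had the highest mean of the family and another course. It was 271.2, 270.5, 271.9, 293.2, 284.0 and 246.3 FPKM from E12.5 to E17.5, 174.4 at E18.5, 229.8 at D1, 207.3 at D3, 256.5 at D5, 175.5 at W1, 167.1 at W2, and 90.6, 74.2 and 129.4 at W3, W6 and W8. The Ph1 and Ph2 values overlapped, since D5 lay above E17.5, whereas every Ph3 value lay below every earlier one. The change was -0.45 ± 0.14 from Ph1 to Ph2 (adjusted p 0.0098, and 0.26 after scaling) and -1.05 ± 0.17 from Ph2 to Ph3 (adjusted p 0.00025, and 0.027 after scaling). Srsf2, a nuclear SR protein that also acts in transcript elongation, went from 266 ± 38 FPKM in Ph1 to 148 ± 24 and 88.1 ± 24, with D5 again (191.5) the highest value of Ph2.

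The smallest falls of the Srsf genes on FPKM values were those of Srsf9 (-1.44 ± 0.14) and Srsf4 (-1.46 ± 0.17), both with an adjusted p under 0.01 after scaling too. Srsf4 ran at a low level, 18.4 ± 3.7 FPKM in Ph1 and 5.99 ± 0.92 in Ph3. Srsf12 was nearly silent throughout, from 3.53 FPKM at E12.5 to 0.258, 0.0465 and 0.160 in Ph3. The authors' 95% bounds on Srsf12 were wide, from 14.9% of the value on either side at E12.5 to 132% at W6, against a median of 4.71% for the 46 other genes with 1 entry. Its fold of 16.0 thus divides by values with bounds as wide as themselves at W6. Srsf1, Srsf6, Srsf10 and Srsf11 lay between these, with Ph1 means 3.08-fold (Srsf11) to 3.85-fold (Srsf10) those of Ph3.

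On log2(FPKM + 1) the Hnrnp genes held both the largest and the smallest fall of all 50. Their median change from Ph1 to Ph3 was -1.69 (-0.80 scaled), with a range from -2.995 (Hnrnpa1) to -0.82 (Hnrnpul2). All 20 were called lower on FPKM values (55.2% of all symbols) and 17 after scaling (27.3% of all symbols). Hnrnpa1 encodes the archetypal hnRNP, which binds exon silencers and moves between nucleus and cytoplasm. It was 1158, 1011, 906.5, 822.3, 623.4 and 513.2 FPKM from E12.5 to E17.5, then 433.5, 356.5, 264.6, 270.4, 214.3 and 169.1 from E18.5 to W2, and 116.6, 80.4 and 108.2 from W3 to W8. The phases did not overlap, and the gene dropped from rank 106 among all symbols at E12.5 to rank 972 at W6. The change was -2.995 ± 0.29 from Ph1 to Ph3 (adjusted p 7.1e-07) and -2.10 ± 0.25 after scaling (adjusted p 5.6e-06). With the pseudocount of 1 this was the largest fall of the 50 on both scales, whereas by fold of phase means Srsf12 fell more. Processed copies of Hnrnpa1 and of several Sm genes lie in the mouse genome, and how reads shared with them were assigned is not given in the sources used here.

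Hnrnpa2b1, which binds AG-rich motifs and takes part in RNA transport, did not follow Hnrnpa1 after birth. It was 895.1, 784.9, 799.2, 765.6, 627.7 and 574.5 FPKM from E12.5 to E17.5, 471.7, 302.6, 355.2, 384.7, 305.7 and 309.4 from E18.5 to W2, and 321.3, 217.5 and 286.8 from W3 to W8. W3 lay above D1, W1 and W2, so Ph2 and Ph3 overlapped, and the step from Ph2 to Ph3 was -0.37 ± 0.18 (adjusted p 0.085). On the scaled values the same step was 0.25 ± 0.13 (adjusted p 0.13), with -0.53 ± 0.13 from Ph1 to Ph3 (adjusted p 0.0018).

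Hnrnph1, which binds runs of G, fell by 2.51 on the log2 scale from Ph1 to Ph3 (SE 0.23, adjusted p 5.6e-07) and by 1.62 after scaling (adjusted p 3.6e-06). It was 363.7 FPKM at E12.5, 176.8 at E17.5, 83.2 at W2 and 51.8, 33.9 and 50.8 in Ph3. Its X-linked relative Hnrnph2 went from 45.8 ± 4.8 FPKM in Ph1 to 28.0 ± 3.1 in Ph2 and 20.6 ± 2.9 in Ph3, a change of -1.12 ± 0.12 (-0.25 scaled, adjusted p 0.018). Hnrnpf, another G-run binder, was among the flattest, with 268 ± 20, 169 ± 17 and 128 ± 14 FPKM in the 3 phases and a change of -1.07 ± 0.11 (-0.17 scaled, adjusted p 0.073).

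Hnrnpul2, a relative of Hnrnpu linked to the DNA damage response, changed least. It lay between 73.1 and 93.0 FPKM in Ph1, between 59.9 and 80.5 in Ph2 and at 57.4, 38.2 and 52.2 in Ph3, so that E18.5 overlapped with Ph1. The change from Ph1 to Ph3 was -0.82 ± 0.13 on FPKM values (adjusted p 4.4e-05) and turned to 0.064 ± 0.085 after scaling (adjusted p 0.52). Hnrnpul1, its neighbour in sequence, went from 112 ± 19 FPKM in Ph1 to 45.2 ± 7.8 in Ph3 (-1.29 ± 0.16, and -0.40 ± 0.11 scaled, adjusted p 0.0047). Of the other Hnrnp genes, Hnrnpa3 had 284 ± 30 FPKM in Ph1 and 103 ± 12 in Ph3. Hnrnpr, Hnrnpa0, Hnrnpd and Hnrnpdl fell by 2.17, 2.16, 2.14 and 2.05 on the log2 scale, and these were named after their values were seen. Hnrnpab, Hnrnpc, Hnrnph3, Hnrnpk, Hnrnpl, Hnrnpll, Hnrnpm and Hnrnpu had Ph1 means 2.38-fold (Hnrnpab) to 3.84-fold (Hnrnph3) those of Ph3. Hnrnpa2b1, Hnrnpc, Hnrnpll and Hnrnpul2 were the Hnrnp genes not called lower in Ph3 than in Ph2.

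The Sf3 genes changed by a median of -1.48 from Ph1 to Ph3 (-0.60 scaled). All 8 were called lower on FPKM values (55.2% of all symbols) and 7 after scaling (27.3% of all symbols). Sf3b3, the large SF3b subunit that packs against SF3B1, fell most: 82.3 FPKM at E12.5, 51.0 at E17.5, 40.1 at E18.5, 28.5 at W2 and 20.2, 13.8 and 15.8 in Ph3. The phases did not overlap, and the change was -1.98 ± 0.16 (adjusted p 4.3e-07) and -1.12 ± 0.12 after scaling (adjusted p 2.6e-06). Sf3a3, the SF3a subunit that joins the complex to U2, followed with 64.0 ± 12, 31.6 ± 4.0 and 17.9 ± 3.6 FPKM in Ph1, Ph2 and Ph3 (-1.78 ± 0.17).

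Sf3b5, a small SF3b subunit, was flat in Ph1, at 207.7 to 229.3 FPKM, then 161.3 at E18.5 and 114.3 to 145.6 in the rest of Ph2. In Ph3 it was 128.8, 105.3 and 81.3, so W3 lay among the Ph2 values. Its change from Ph1 to Ph3 was -1.07 ± 0.14 (adjusted p 5.6e-06) and -0.17 ± 0.13 after scaling (adjusted p 0.24). Sf3b2, which touches the RNA beside the branch point, went from 128 ± 20 to 74.8 ± 5.6 and 52.9 ± 5.5 FPKM (-1.25 ± 0.13, and -0.36 ± 0.10 scaled, adjusted p 0.0069). Sf3a1, Sf3a2, Sf3b4 and Sf3b1, the subunit that clasps the branch helix, had Ph1 means 2.78-fold (Sf3a2) to 3.23-fold (Sf3a1) those of Ph3, and Sf3b4 and Sf3b5 were not called lower in Ph3 than in Ph2. 0610009D07Rik, the older symbol of Sf3b6, went from 61.2 FPKM at E12.5 to 39.6 at W2 and 25.5 at W8 (-0.996 ± 0.19, adjusted p 0.00024).

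The Snrp genes changed by a median of -1.70 from Ph1 to Ph3 (-0.82 scaled). All 11 were called lower on both scales, beside 55.2% of all symbols on FPKM values and 27.3% after scaling. In each of them every Ph1 FPKM value lay above every later value, as in 21.5% of all symbols. Snrpg, which encodes SmG, had the highest FPKM of all 50 genes at each timepoint from E12.5 to E18.5 and the highest mean over the 15 libraries (612). It was 1193, 1083, 939.3, 1099, 759.3 and 802.7 FPKM from E12.5 to E17.5, 546.8, 477.3, 405.8, 406.2, 412.2 and 334.3 from E18.5 to W2, and 276.2, 274.6 and 176.3 from W3 to W8. Snrpd2 lay above it in all 8 libraries from D1 on (507.7 against 477.3 at D1, 195.3 against 176.3 at W8). The change of Snrpg was -2.02 ± 0.19 (adjusted p 6.0e-07) and -1.12 ± 0.18 after scaling (adjusted p 7.5e-05). Snrpd1 (SmD1) fell most of the family, from 173 ± 24 FPKM in Ph1 to 68.3 ± 18 in Ph2 and 36.5 ± 10 in Ph3 (-2.24 ± 0.20, and -1.35 ± 0.18 scaled).

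The 7 genes of the Sm ring did not keep step. Snrpd2 (SmD2) fell by 1.404 on the log2 scale (SE 0.15) and Snrpb (SmB) by 1.45 (SE 0.15), the least of the family, against 2.24 for Snrpd1. Snrpd2 was 587.2 to 753.3 FPKM in Ph1, 371.5 to 507.7 in Ph2 and 341.7, 279.5 and 195.3 in Ph3, and Snrpb was 274.3 to 340.5, 158.0 to 210.6, and 149.4, 107.1 and 86.5. After scaling the step of Snrpd2 from Ph1 to Ph2 was -0.39 ± 0.12 (adjusted p 0.014). Snrpd3, Snrpe and Snrpf had Ph1 means 2.84-fold (Snrpd3), 2.96-fold (Snrpe) and 3.45-fold (Snrpf) those of Ph3, and Snrpe was the member of the family not called lower in Ph3 than in Ph2. The U1 proteins Snrpa and Snrpc (3.26-fold and 3.24-fold) and the U2 proteins Snrpa1 and Snrpb2 (3.41-fold each) lay within the range of the ring genes.

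**Figure D3:**
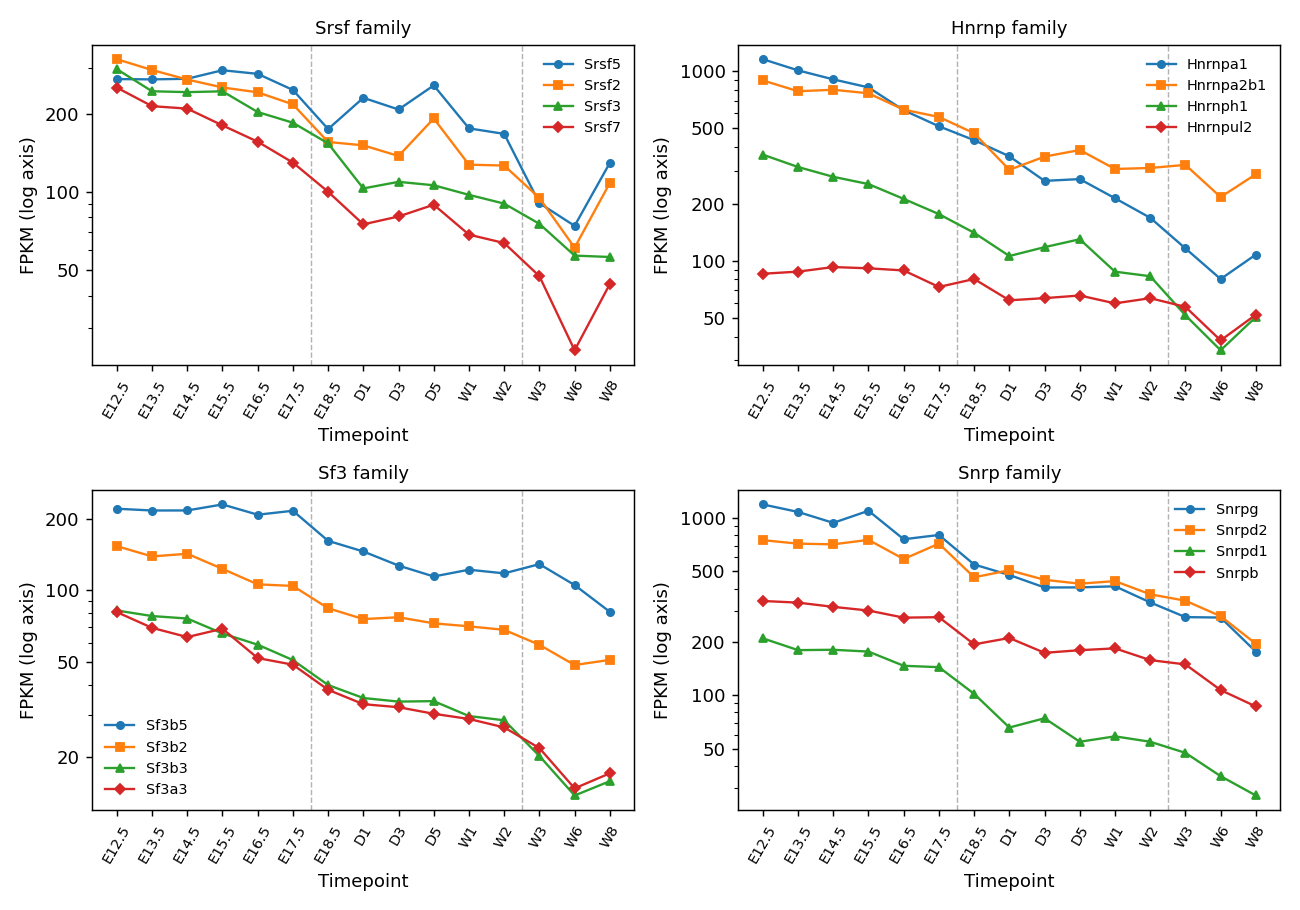
FPKM on a log axis for 4 genes of each family (the highest levels, the largest falls and the smallest falls) at the 15 timepoints, 1 library per point, with dashed lines between the phases. Hnrnpa1 starts above Hnrnpa2b1 (1158 against 895.1) and ends below it (108.2 against 286.8), and the Srsf5 values of Ph1 (246.3 to 293.2) overlap with D5 (256.5).

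**Figure D4:**
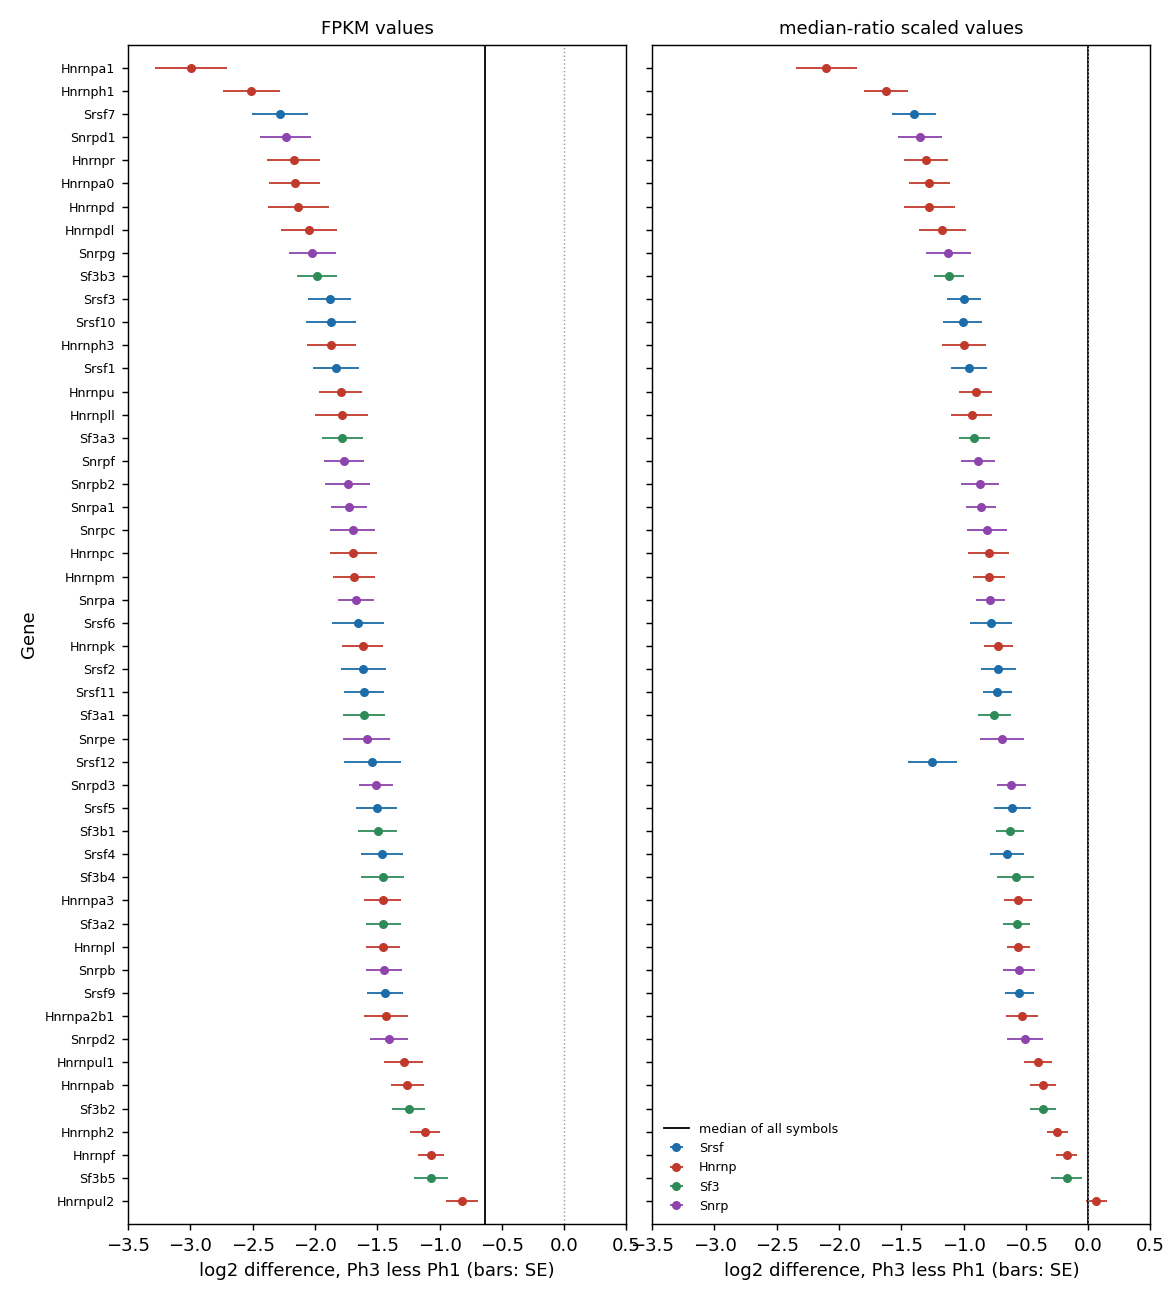
Points give the fitted log2 difference between Ph3 (n = 3) and Ph1 (n = 6) for each of the 50 genes, with bars of 1 SE, coloured by family, for FPKM (left) and median-ratio scaled values (right). The black line is the median of all symbols, at -0.64 and -0.00, and 49 of the 50 genes lie to its left on the scaled values, with Hnrnpul2 to its right at 0.064.

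Core and regulatory genes fell by like amounts. The median change from Ph1 to Ph3 was -1.60 over the core genes and -1.66 over the regulatory genes, a difference of 0.05 with an SD over the Ph3 libraries of 0.25 (n = 3). The difference was -0.12 without W6 and 0.15 without W8, so its sign rested on 1 library. The summed FPKM of core genes was 0.614 of that of regulatory genes at E12.5, 0.762 at W3, 0.867 at W6 and 0.543 at W8, the highest and lowest ratios of the series lying side by side in age.

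The step from W6 to W8 differed between families and, over all genes, between short and long transcripts. From W6 to W8 the median gene changed by 0.58 over Srsf, 0.30 over Hnrnp, 0.15 over Sf3 and -0.30 over Snrp, and 10 of 11 Snrp genes were lowest at W8 against 2 of 11 Srsf genes. Over all genes of a mean of at least 10 FPKM, those whose longest transcript is under 1000 bases changed by -0.36 (571 genes) and those over 4000 bases by 0.20 (2042 genes). The median longest transcript is 1690 bases for Snrp, 3106 for Srsf, 3531.5 for Sf3 and 3714.5 for Hnrnp genes. The Snrp genes had the shortest median, though above 1000 bases, and their median fell from W6 to W8, as did that of the short class. The other 3 families were ordered otherwise by this step than by length. The median of D5 less W1, the later timepoint, was 0.39 for Srsf, 0.26 for Hnrnp, 0.15 for Sf3 and -0.01 for Snrp. It was -0.09 for short and 0.19 for long transcripts. From E17.5 to E18.5, between Ph1 and Ph2, the median change was -0.37 for Srsf, -0.25 for Hnrnp, -0.34 for Sf3 and -0.55 for Snrp. Short transcripts changed by -0.21 and long ones by -0.03 at that step. The parts of transcript length and of library quality in these steps were not tested.

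Ratios within a library do not depend on its scaling, and 12 pairs of related genes were compared. In 5 of the 12 pairs the Ph1 and Ph3 ranges lay apart. The share of other gene pairs that part in this way was not computed. This count is thus not shown to be particular to related genes. Hnrnpa1 stood to Hnrnpa2b1 as 1.29 at E12.5, 1.29 at E13.5, 1.13 at E14.5, 1.07 at E15.5, 0.993 at E16.5 and 0.893 at E17.5, then at 0.547 to 1.18 in Ph2 and at 0.363, 0.370 and 0.377 in Ph3. Thus Hnrnpa1 was the more abundant mRNA of the pair per length from E12.5 to E15.5, and Hnrnpa2b1 from E16.5 on except at D1, by little at E16.5 (0.993). The highest Ph2 ratio, 1.18, was that of D1. The same D1 library had 460.5 FPKM of the liver transcript Alb, against 0.672 to 65.4 elsewhere, and the part of admixed tissue in that ratio was not tested.

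Hnrnpa1 to Hnrnpa3 went from 3.56 at E12.5 to 1.18 at W2 and 0.905 to 1.05 in Ph3. This ratio too was high at D1, with 2.51 against 1.94 at E18.5, so Ph2 overlapped with Ph1 (2.13 to 3.56). Hnrnph1 to Hnrnph2 fell at nearly every step, with 7.22 for E12.5, 4.70 for E17.5, 3.07 for W2 and 1.87 to 2.55 in Ph3, and the Ph1, Ph2 and Ph3 ranges were apart from each other. Hnrnpul1 to Hnrnpul2 moved from 1.54 at E12.5 to 0.903 to 0.956 in Ph3, a smaller shift, with means of 1.29 ± 0.17 in Ph1 (SD, n = 6) and 0.921 ± 0.031 in Ph3 (n = 3). Srsf10, a splicing repressor when dephosphorylated, to Srsf12 rose from 18.4 to 43.8 in Ph1 to 73.2, 249.2 and 95.6 in Ph3, where the divisor was near 0. The other 7 pairs overlapped, among them Srsf3 to Srsf7 (1.14 to 1.42 in Ph1, 1.27 to 2.31 in Ph3), Srsf6 to Srsf4 (4.71 to 5.66 and 3.96 to 5.40), Hnrnpd to Hnrnpdl (0.4933 to 0.609 and 0.415 to 0.564) and Snrpa to Snrpb2 (1.80 to 2.39 and 1.87 to 2.81). These ratios are a description, since the pairs share their libraries.

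**Figure D5:**
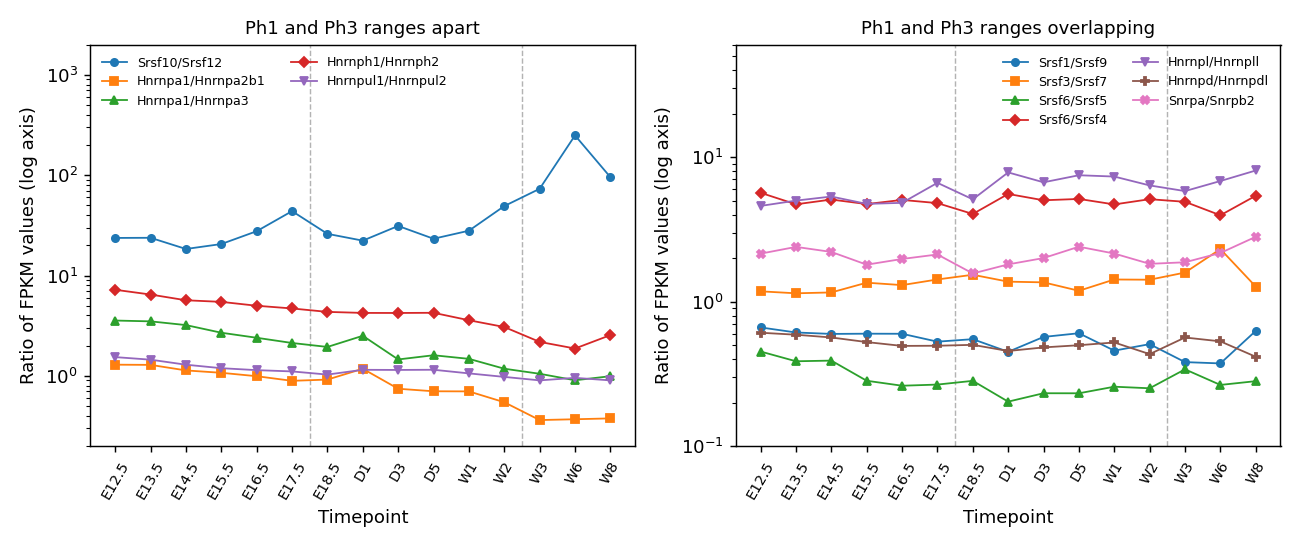
Ratio of FPKM values within a library (log axis) for 12 pairs of related genes at the 15 timepoints, with the 5 pairs whose Ph1 and Ph3 ranges lie apart on the left and the 7 that overlap on the right. Hnrnpa1/Hnrnpa2b1 ends at 0.363 to 0.377 and Hnrnph1/Hnrnph2 at 1.87 to 2.55, while Srsf6/Srsf4 stays near its start.

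Genes of these families are known to limit their own output through transcripts with a premature stop, which are degraded. In the GENCODE vM21 annotation 24 of the 50 genes (48.0%) have a transcript typed as a target of nonsense-mediated decay, beside 26.3% of 14045 tested symbols with a protein-coding transcript. By family these were 9 of 11 Srsf, 10 of 20 Hnrnp, 1 of 8 Sf3 and 4 of 11 Snrp genes. A transcript typed as retaining an intron is annotated for 37 of the 50 (74.0%, beside 55.4%). The median number of annotated transcripts is 6 for the 50 genes (Srsf 7, Hnrnp 8, Sf3 4, Snrp 5) and 5 for the tested symbols. The shares were not adjusted for this number. An FPKM per gene adds up productive and unproductive transcripts, and their shares were not analysed here.

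Most other splicing genes were lower in Ph3 as well. Counts called lower from Ph1 to Ph3 on FPKM values stood beside 55.2% of all symbols. They were 7 of 8 further snRNP protein genes (Snrpn among them), 19 of 19 Prp and helicase genes and 4 of 5 genes for 3′ splice site recognition. Next came 7 of 7 Lsm ring genes found and 12 of 12 genes of the SMN complex and Sm methylation (which load the Sm ring). The last were 8 of 9 SR protein kinase and import genes and 11 of 11 SR-like coactivators. After scaling these counts were 3, 11, 4, 4, 8, 3 and 9, beside 27.3%. The median changes of these lists on FPKM values ran from -1.06 to -1.55, each of smaller size than the -1.64 of the 50 genes. Within them Snrnp40 (-1.94 ± 0.14), Prpf4 (-1.90 ± 0.17), Lsm5 (-1.85 ± 0.24), Gemin5 (-1.82 ± 0.18) and Tra2b (-1.93 ± 0.18) fell most in their lists. At the other end, Srpk3, a muscle kinase of SR proteins at a low level, went from 0.684 ± 0.16 FPKM in Ph1 to 1.95 ± 0.73 in Ph2 and 0.523 ± 0.28 in Ph3. It rose from Ph1 to Ph2 (0.78 ± 0.15, adjusted p 0.00053, and 0.88 scaled, adjusted p 0.00041), and its change from Ph1 to Ph3 was -0.16 ± 0.18 (adjusted p 0.45). Clk3, another kinase of SR proteins, changed by -0.52 ± 0.11 and U2af1l4, a relative of the 3′ splice site reader U2af1, by -0.28 ± 0.09 (adjusted p 0.013). After scaling Clk3 (0.35, adjusted p 0.0012) and U2af1l4 (0.60, adjusted p 0.00020) were higher in Ph3, so their direction depends on the scale.

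The list of 37 other splicing regulators held genes that fell and a few that rose. Of its 36 tested genes, 29 were lower and 1 higher in Ph3 than in Ph1 on FPKM values, and 23 were lower and 5 higher after scaling. The share of all symbols called lower was 55.2% on FPKM values and 27.3% after scaling. Tia1, which favours weak 5′ splice sites, went from 39.7 ± 13 to 4.50 ± 2.6 FPKM (-2.93 ± 0.32), and Rbfox2, a reader of UGCAUG, from 41.5 ± 8.4 to 6.27 ± 2.4 (-2.57 ± 0.24). Rbm20, known for titin splicing in muscle, rose from 0.320 ± 0.23 to 1.95 ± 0.56 FPKM (1.16 ± 0.17, adjusted p 2.0e-05). The epithelial regulator Esrp2 had 25.4 ± 12 FPKM in Ph1 and 29.5 ± 4.7 in Ph3 (adjusted p 0.36, and 0.0047 with a change of 1.199 after scaling).

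Markers of cell division moved with the splicing genes. All 16 were lower in Ph3 than in Ph1 on both scales (median -2.53, and -1.68 scaled), beside 55.2% and 27.3% of all symbols. Their summed FPKM was 804 to 1288 in Ph1, 284 to 607 in Ph2 and 169 to 282 in Ph3. Top2a, needed to part chromosomes, went from 88.1 ± 17 to 10.8 ± 4.5 FPKM. The part of dividing cells in the fall of the splicing genes was not tested. Of 14 stomach markers all were detected, with 11 called higher and 2 lower in Ph3 than in Ph1 on both scales. Their summed FPKM rose from 1249 at the lowest in Ph1 to 320660 at the highest in Ph3. Among them Pgc (pepsinogen C) had 136.7 FPKM in the E12.5 library and 151321 in that of W8. Liver markers summed to 32.1 to 155 FPKM in Ph1, 254 to 1455 in Ph2 and 1532 to 2405 in Ph3, where Apoa1 made up the most (2270 at W6). Pancreas markers summed to 5.73 to 62.6, 13.9 to 155 and 76.0 to 105 FPKM, with Ctrb1 at 84.5 at D3 and 39.3 at E15.5. Erythroid markers summed to 5741 to 8058 FPKM in Ph1, 266 to 3129 in Ph2 and 294 to 674 in Ph3, and neuron markers to 161 to 295, 117 to 200 and 36.5 to 74.3. Smooth muscle markers summed to 1313 to 5879 FPKM in Ph1, 4373 to 10632 in Ph2 and 2126 to 7863 in Ph3, and 4 of 8 were higher in Ph2 than in Ph1 (6 of 8 scaled). Leukocyte markers summed to 21.8 to 57.7, 42.4 to 137 and 142 to 184. The part of any of these cells in the fall was not tested. None of the 10 liver or 10 pancreas markers was at 0 throughout. Without D1, 49 of the 50 splicing genes were lower in Ph2 than in Ph1 and 38 lower in Ph3 than in Ph2.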

How the data were processed

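RNA sequencing of stomach was measured in 15 libraries, 1 per timepoint, each assigned by its label. FPKM values of each gene entry, with confidence bounds, were deposited by the authors. Per the paper's methods, reads were mapped with HISAT2 and quantified with StringTie. The submitters' processing notes name Bowtie 0.12.2, FastQC and GRCm38.p2, and the files have a Cufflinks layout, so these accounts differ, and the methods name liver where the labels name stomach. No read counts were used. Depth as relative reads behind low FPKM values was 0.702 (E16.5) to 1.17 (W6) of E12.5. Entries of a symbol were summed (3 of the 50 genes had more than 1). Symbols of at least 1 FPKM in some library were fitted as log2(FPKM + 1) with limma 3.58.1 in R 4.3.3 (3 phases, Benjamini-Hochberg over all 16902 symbols, adjusted p under 0.01), and the fit was tested on simulated data. The pseudocount understates changes of low genes. Alternatives were other scalings, filters, pseudocount, groupings and single libraries left out. Named genes are, per family, the 2 with the highest mean and the 2 with the largest and smallest falls, genes of pairs whose ratio ranges lay apart, and the 2 extremes at each end of other lists. Members, gene lists and pairs were chosen with earlier results of these data known. Promoter sequences are RefSeq's (GRCm38.p6), 1 window a gene.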

Additional observations from a re-analysis of the deposited data

Results flagged for a closer look

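Within Ph1 and Ph2 (6 timepoints each), a gene was listed here when the gap between its highest or lowest timepoint and the nearest other, as a share of the whole range of log2(FPKM + 1), was above Dixon's 95% critical value. Of 100 groups tested, 8 were listed. Chance alone lists about 1 in 20 groups of independent draws without a trend. These groups are ordered ages of genes that share their libraries, so that rate is no baseline for them. In 6 of the 8, all in Ph2, E18.5 was the highest timepoint: Hnrnpab (0.694), Hnrnpf (0.693), Hnrnpul2 (0.678), Hnrnpll (0.654), Hnrnpk (0.646) and Srsf3 (0.639). E18.5 was the fetal library of Ph2. In Ph1, Snrpd2 was lowest at E16.5 (587.2 FPKM, 0.767) and Hnrnpul2 at E17.5 (73.1 FPKM, 0.664). E16.5 had the lowest relative depth of the series (0.702).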

How the results depend on the processing

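All 50 genes differed across the phases and were lower in Ph3 than in Ph1, and 48 to 50 were lower in Ph2 than in Ph1, under each library left out on FPKM values. The count lower in Ph3 than in Ph2, 43 as reported, was 23 with a fixed sum without the 10 highest symbols, 21 with life stages (fetal, suckling, weaned) as groups, 9 with quantile normalization, 2 with median-ratio scaling and 0 with median-ratio scaling and life stages together, an alternative chosen after seeing the data (by limma; 7 at an unadjusted p under 0.05); with single libraries left out it was 10 (without W6) to 46 (without E17.5), and 25 without W8. The median change from Ph1 to Ph3 relative to that of all symbols (-1.64 against -0.64 as reported) was -0.78 with median-ratio scaling, -0.84 with a pseudocount of 0.1, -1.25 with quantile normalization, -1.53 with no filter on low values and -0.68 with median-ratio scaling and life stages, and -1.06 to -0.93 with single libraries left out. The core less regulatory difference, 0.05, was -0.12 to 0.15 with single libraries left out. Hnrnpul2 reversed to 0.064 with median-ratio scaling and to 0.054 with life stages added; the other 23 named genes kept their direction, though Hnrnpf, Hnrnph2 and Sf3b5 were no longer called with median-ratio scaling, and 6 were not called once life stages were added. With median-ratio scaling and single libraries left out (chosen after seeing the data), 45 to 48 genes were lower in Ph2 than in Ph1, 0 to 4 lower in Ph3 than in Ph2 by limma (7 to 12 at an unadjusted p under 0.05) and 40 to 46 lower in Ph3 than in Ph1. The cause of these shifts was not tested. With 1 library per timepoint, technical and age-related spread cannot be told apart.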
